A study of Homo sapiens with 6 samples.

Results

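The 35 genes described here encode the transcription factor NRF2 and its regulators, the enzymes that make, use and recycle glutathione, the thioredoxin and peroxiredoxin proteins, the superoxide dismutases and catalase, and several other NRF2 targets. They were chosen by symbol, and all 35 matched a row among the 26810 gene rows of the deposited expression table. One of them, AKR1B1, was too low to be tested, which leaves 34 of 12449 tested genes. Their RNA was measured in U-937 cells, a human acute myeloid leukemia line with monocytic features, in 2 groups of 3 libraries. The sgNS group carried a control guide RNA and the sgMETTL1.3 group carried a guide against METTL1, which encodes the methyltransferase subunit of the complex that puts N7-methylguanosine into transfer RNA. Both groups were made by lentiviral transduction of a single Cas9-expressing clone, selected with blasticidin at 10 µg/ml and hygromycin B at 200 µg/ml, and collected at about day 8 to 10 after transduction. The labels give the genotype as a KMT2A-MLLT10 fusion, whereas U-937 is generally described as carrying PICALM-MLLT10, and the fusion was not examined here. Only 1 clone and 1 METTL1 guide were used, so effects of the guide other than loss of METTL1 cannot be told apart from it.

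NRF2, encoded by NFE2L2, binds with small MAF proteins to antioxidant response elements in the promoters and enhancers of its targets. In unstressed cells KEAP1 binds NRF2 and hands it to a CUL3 and RBX1 ubiquitin ligase for degradation, and BACH1 competes for the same DNA sites. NRF2 is therefore regulated largely at the level of the protein, which RNA values do not measure. Glutathione and thioredoxin are the thiol systems that keep proteins reduced and that feed electrons to the peroxidases of the GPX and PRDX families. Myeloid cells depend on them because they can produce large amounts of superoxide and peroxide.

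Antioxidant response element cores are short, and the promoter sequences below are shown because they are the members' stretches that hold one close to the transcription start. RefSeq promoters (GRCh38.p14) were found for 27 of the 35 genes, 43 promoters in all. The 250 bases before each start were searched on both strands for the core TGACNNNGC. A match was present in 6 of the 43 promoters (14.0%), against 10.9% of all 35116 RefSeq promoters of the same length, and the 6 belong to KEAP1, GCLM, GSTP1, GSTO1 and TXNRD1. The stricter form TGACTCAGC, which also contains the binding site of AP-1 factors, was found in GSTP1 and in 0.456% of all promoters. In each line 1 core is in capitals with up to 30 bases of flank, cut at the start site, and it reads as its reverse complement where the match is on the opposite strand.
KEAP1: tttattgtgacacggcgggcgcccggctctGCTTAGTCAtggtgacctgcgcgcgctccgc
GCLM: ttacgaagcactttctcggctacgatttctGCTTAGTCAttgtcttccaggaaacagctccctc
GSTP1: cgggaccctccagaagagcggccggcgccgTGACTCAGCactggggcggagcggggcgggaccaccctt
GSTO1: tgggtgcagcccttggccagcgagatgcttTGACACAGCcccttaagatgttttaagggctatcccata
TXNRD1, first start: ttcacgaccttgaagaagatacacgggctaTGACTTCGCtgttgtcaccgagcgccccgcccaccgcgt
TXNRD1, second start: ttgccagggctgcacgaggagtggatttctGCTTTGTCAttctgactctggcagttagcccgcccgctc

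The KEAP1 stretch lies at chr19:10502772-10502832 on the minus strand and its core begins 31 bases before the start. The GCLM stretch, at chr1:93909431-93909494 on the minus strand, holds the same 9 letters 34 bases before the start. The GSTP1 stretch is at chr11:67583716-67583784 and the GSTO1 stretch at chr10:104254701-104254769, both on the plus strand, with the cores 66 and 161 bases before the start. The TXNRD1 stretches are at chr12:104215650-104215718 and chr12:104286900-104286968, with cores 99 and 102 bases before the start. The KEAP1 line holds a second match in lower case, TGACACGGC on the gene's strand, 54 bases before the start, and a further match in the GSTO1 promoter, 226 bases before the start, is not shown. A match is a description of letters, and the expression of these genes is given with their groups below.

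The values are length-normalised transcript abundances (TPM) multiplied by 1 factor per library. It sets the ERCC spike-ins, synthetic RNAs added to each sample, to the same sum, and this is called the spike-in scale. The labels do not state the amount of spike-in or the step at which it was added. Whether this scale is per cell or per amount of RNA is therefore not known. The factors were 1.13 to 1.23 in sgNS and 0.832 to 1.03 in sgMETTL1.3, so the scale itself moves genes down in the second group. The median log2 fold change over all tested genes was -0.32 on the spike-in scale and 0.01 as TPM, and the fold changes of the members are given on both. Read depth is unknown, and between 12134 and 12505 genes per library reached a value of 1. METTL1 fell from 20.7 ± 1.18 to 7.22 ± 1.19 (SD, n = 3; log2 fold change -1.41, limma adjusted p = 2.41e-06; -1.08 as TPM). Of 11 myeloid markers, 9 were at 1 or above in at least 3 libraries, while MPO and CD14 had means under 1 in both groups. The summed level of the 11 was 1387 to 1485 in sgNS and 785 to 1007 in sgMETTL1.3, and 1249 to 1271 and 989 to 1020 as TPM. Much of the difference lay in LYZ, lysozyme (404 ± 16.3 and 72.1 ± 7.48, SD, n = 3), chosen after its values were seen. CD33, CSF1R and FCGR1A were also lower on both scales (log2 fold changes -0.64, -0.62 and -0.85, and -0.28, -0.35 and -0.50 as TPM). With all 6 libraries and no correction for GC content, PTPRC, CD4 and ITGAM were lower on the spike-in scale only. In these fits SPI1 and CEBPA passed on neither scale. Without sgMETTL1.3 replicate 1 SPI1 and CEBPA were lower on the spike-in scale (-0.45 and -0.39) and did not pass as TPM. As TPM without that library ITGAM was called lower (-0.15, limma adjusted p = 0.0134) and PTPRC higher (0.12, limma adjusted p = 0.0022), and CD4 did not pass. The summed level of 15 markers of other cell types was 47.1 to 50.8 and 36.8 to 41.1, and as TPM 42.7 to 43.4 and 40.8 to 46.3, which overlap; nearly all of it was PECAM1, which monocytes also express. CD3D, MS4A1, HBA1, HBB, KRT19 and COL1A2 were listed at 0 in every library, and COL1A1 was at 1.03 to 1.12 in sgNS and 1.65 to 2.78 in sgMETTL1.3. The part of these marker levels in the results below was not tested, and in bulk RNA fewer cells of a type and less RNA per cell cannot be told apart. Whether the replicates were grown as separate cultures is not stated in the labels; the p-values therefore reflect variation among the 6 libraries, part of which may be technical.

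NQO1 and the cystine transporter gene SLC7A11 rose, and 16 of the 34 tested genes fell, among them sulfiredoxin SRXN1, peroxiredoxins PRDX3, PRDX4 and PRDX6, glutaredoxin GLRX2, MGST2 and ABCC1. Of all tested genes 6.4% rose and 49.3% fell on the spike-in scale, so 2 of 34 higher (5.88%) and 16 of 34 lower (47.1%) are close to the background. As TPM, 8 of the 34 rose and 7 fell, beside 24.8% and 25.3% of all genes, and with median-of-ratios scaling 8 rose and 9 fell, beside 23% and 28.9%. With all 6 libraries the 2 higher genes and 7 of the 16 lower genes were called in the same direction under both scalings. Of the lower genes 9 no longer passed as TPM, and no member was called in opposite directions. Without sgMETTL1.3 replicate 1, GPX1, GSTP1, GSTO1, TXN, PRDX2 and PRDX5 were called lower on the spike-in scale and higher as TPM. The shares of all genes with such agreeing or opposite calls were not computed. The median log2 fold change of the 34 was -0.29 on the spike-in scale and 0.07 as TPM. The values of sgMETTL1.3 lay wholly below those of sgNS for 20 of the 34 genes (53.4% of all genes) and wholly above for 3 (8.66% of all genes). As TPM these counts were 11 (32.1% of all genes) and 13 (30.9% of all genes).

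**Figure D1:**
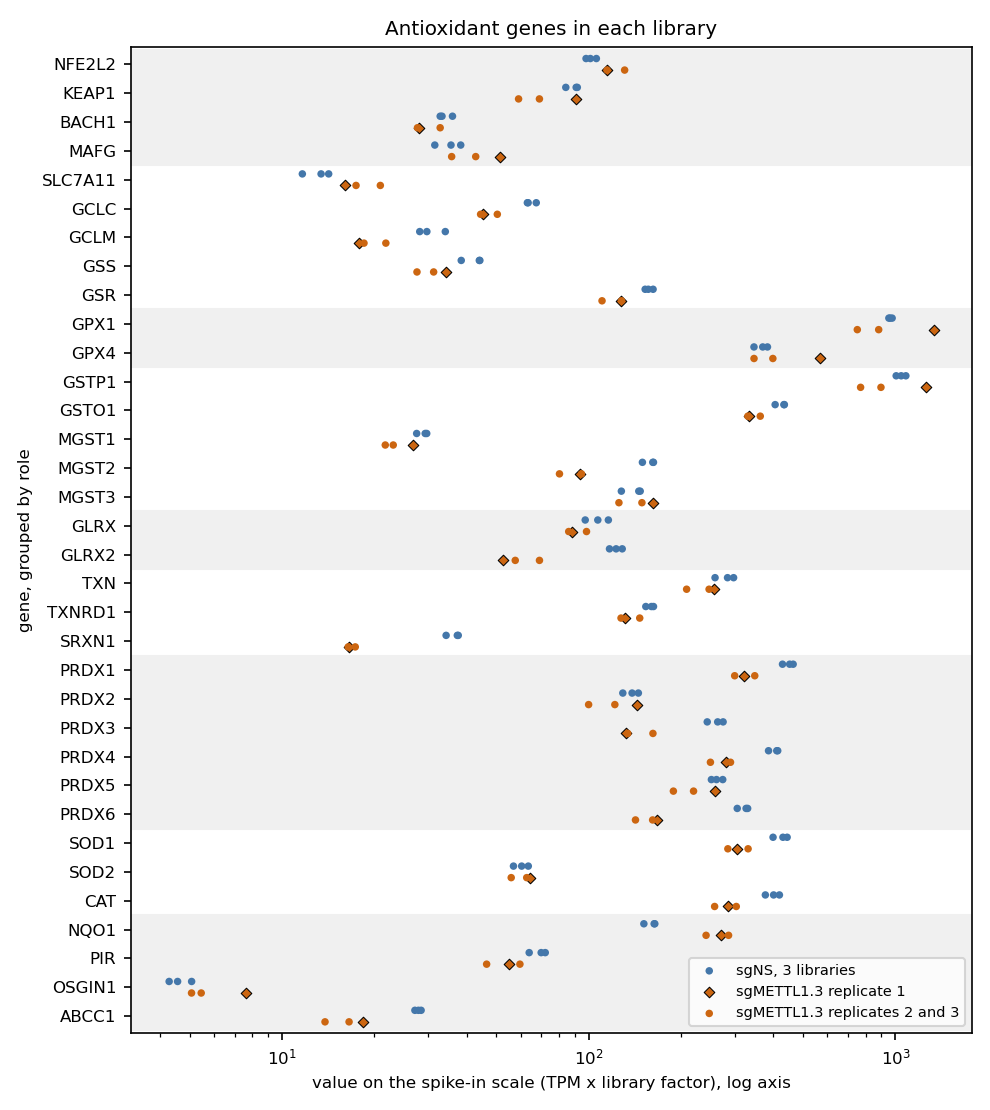
Value of each of the 34 tested genes in each of the 6 libraries, on the spike-in scale with a logarithmic axis and genes grouped by role. Blue points are the 3 sgNS libraries, orange points the sgMETTL1.3 libraries, and the outlined diamond is sgMETTL1.3 replicate 1, which is far to the right for GPX1 (1333), GPX4 (567) and GSTP1 (1258).

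Within its group, sgMETTL1.3 replicate 1 differed from replicates 2 and 3 in a way that followed the GC content of transcripts (GENCODE 29). Over the 34 genes, which share these libraries, its ratio to the mean of the other 2 had a Spearman correlation with GC content of 0.76. The ratio was 1.63 for GPX1 (64.2% GC), 1.52 for GPX4 (65.2%) and 1.51 for GSTP1 (63.7%), and 0.827 for GLRX2 (40.4%) and 0.84 for SLC7A11 (35.4%). Without this library 3 of the 34 genes rose and 23 fell, against 6.43% and 61.4% of all genes. After GC correction 3 rose and 21 fell (8.19% and 60.7% of all genes). In both of these spike-in fits the standard errors hardly differed between genes of similar level. For PRDX2 and NQO1 they were 0.109 and 0.108 without this library and 0.0924 and 0.0927 after GC correction, against 0.127 and 0.100 in the main fit. The p-values of both fits thus rest on a spread pooled over genes and hardly on each gene's own spread. As TPM, 17 rose and 9 fell without this library (36.3% and 34.3% of all genes), and 13 rose and 10 fell after GC correction (29.8% and 33.8% of all genes). Genes of high GC content, such as KEAP1, MAFG, PRDX2, PRDX5 and OSGIN1, are therefore given below with their value without it.

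**Figure D2:**
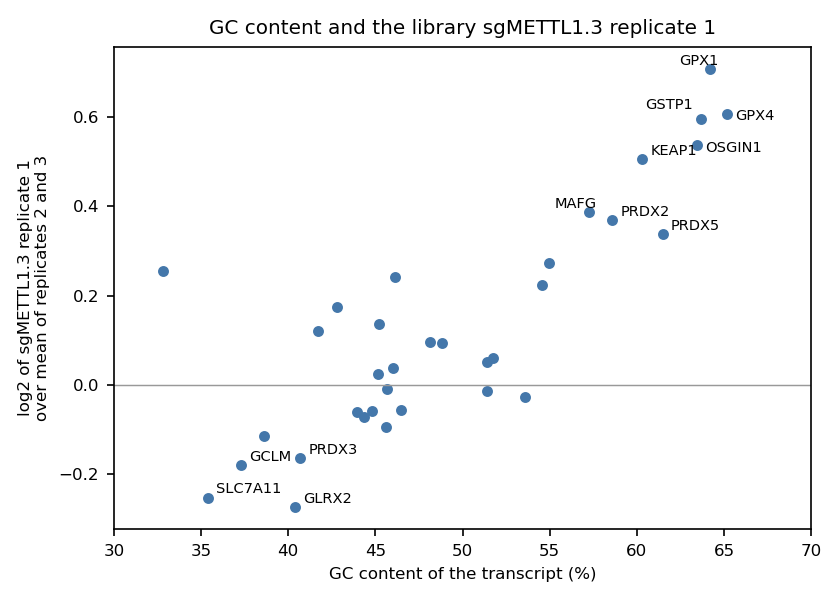
GC content of the transcript of each of the 34 tested genes (horizontal axis, percent) against the log2 ratio of its value in sgMETTL1.3 replicate 1 to the mean of replicates 2 and 3 (vertical axis); each point is a gene. The points climb from GLRX2 and SLC7A11, with ratios of 0.827 and 0.84, to GPX1, with a ratio of 1.63; MGST1, the lowest in GC content, lies off this trend at 1.19.

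Of the regulators, none passed in the main fit on the spike-in scale, and NFE2L2 and MAFG rose as TPM. NFE2L2 (chromosome 2, 177227595 to 177392697, minus strand; GRCh38, as for all positions from GENCODE) had values of 98.0, 106 and 101 in sgNS and 115, 115 and 131 in sgMETTL1.3. The groups did not overlap, but the log2 difference was 0.24 (SE 0.0992) and missed the threshold (limma adjusted p = 0.0568). With 1 library left out it was 0.18 to 0.27. Among these fits it passed only without sgMETTL1.3 replicate 1 (0.27, limma adjusted p = 0.022) or replicate 2 (0.27, limma adjusted p = 0.033). After GC correction on the spike-in scale it also passed (0.28, limma adjusted p = 0.00384). As TPM the NFE2L2 log2 fold change was 0.60 (limma adjusted p = 0.00187). Exons of NFE2L2 and of AGPS, on the opposite strand, overlap by up to 54 bases; whether counting used strand is not stated in the labels. AGPS itself was at 108 to 118 in sgNS and 57.5 to 68.8 in sgMETTL1.3. KEAP1, the inhibitor of NRF2, had values of 84.1, 91.0 and 91.7 in sgNS and 90.9, 59.0 and 69.0 in sgMETTL1.3. Replicate 1 lay among the controls and the other 2 libraries lay below them. The log2 fold change of KEAP1 was -0.30 (limma adjusted p = 0.0928), -0.47 (limma adjusted p = 4.06e-05) without replicate 1, and 0.05 as TPM (limma adjusted p = 0.64). BACH1, a repressor at NRF2 sites, was at 32.8, 33.2 and 35.9 in sgNS and at 27.9, 27.6 and 32.8 in sgMETTL1.3. The highest sgMETTL1.3 library and the lowest control were almost equal, and the log2 fold change of -0.20 did not pass (limma adjusted p = 0.132) and was 0.15 as TPM, also without passing. As TPM without replicate 1 BACH1 was called higher (0.25, limma adjusted p = 0.00108). MAFG, a small MAF partner of NRF2, was at 31.5, 35.5 and 38.2 in sgNS and at 51.3, 35.7 and 42.8 in sgMETTL1.3. The groups overlapped through replicate 2, and the log2 fold change of MAFG was 0.28 (limma adjusted p = 0.0922), 0.16 without replicate 1, and 0.64 as TPM (limma adjusted p = 0.00093).

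The genes of cystine import and of glutathione synthesis moved in opposite directions on the spike-in scale: SLC7A11 rose, and GCLC, GCLM, GSS and GSR fell. SLC7A11 (chromosome 4, 138164097 to 138242349, minus strand), the cystine-importing subunit of system xc-, was at 11.6, 14.2 and 13.4 in sgNS and at 16.1, 17.4 and 20.9 in sgMETTL1.3. All 3 sgMETTL1.3 libraries were above all controls. Its log2 fold change was 0.44 (SE 0.129, limma adjusted p = 0.0107) and 0.78 as TPM (limma adjusted p = 0.00274). The call was lost without sgNS replicate 1 (limma adjusted p = 0.0609) and without sgMETTL1.3 replicate 3 (limma adjusted p = 0.0516).

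GCLC and GCLM encode the catalytic and modifier subunits of glutamate-cysteine ligase, the rate-limiting enzyme of glutathione synthesis. GCLC was at 63.1, 67.4 and 63.4 in sgNS and at 45.1, 44.4 and 50.3 in sgMETTL1.3 (log2 fold change -0.47, limma adjusted p = 0.00154). GCLM, whose promoter stretch is printed above, was at 28.1, 34.1 and 29.7 and at 17.8, 18.5 and 21.8 (log2 fold change -0.63, limma adjusted p = 0.000585). Neither gene overlapped between the groups on this scale. As TPM their log2 fold changes of -0.11 and -0.29 did not pass (limma adjusted p = 0.346 and 0.0782). As TPM without sgMETTL1.3 replicate 1 GCLM was called lower (-0.16, limma adjusted p = 0.0258), and GCLC did not pass (-0.02). GSS, glutathione synthetase, fell from 42.2 ± 3.27 to 31.0 ± 3.40 (SD, n = 3), and GSR, the reductase that regenerates glutathione, fell from 157 ± 4.71 to 122 ± 9.93 (SD, n = 3). As TPM their log2 fold changes were -0.08 and -0.01, without passing, and that of GSR was 0.03 as TPM without sgMETTL1.3 replicate 1. Of the 5 genes, SLC7A11 alone passed as TPM with all 6 libraries and no GC correction. As TPM with GC correction SLC7A11 was again higher, and GCLM and GSS were called lower (-0.15 and -0.18, limma adjusted p = 0.0467 and 0.0215).

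Among the glutathione peroxidases, both selenoproteins, neither GPX1 nor GPX4 passed on the spike-in scale, and GPX4 rose as TPM. GPX1, which reduces hydrogen peroxide, was at 951, 960 and 975 in sgNS and at 1333, 751 and 882 in sgMETTL1.3. Replicate 1 lay above all controls and replicates 2 and 3 lay below them. The GPX1 log2 fold change of 0.00 (limma adjusted p = 0.986) became -0.24 without replicate 1 (limma adjusted p = 0.0363) and 0.36 as TPM (limma adjusted p = 0.0578). As TPM without replicate 1 GPX1 was called higher (0.19, limma adjusted p = 0.000798). GPX4, which reduces lipid hydroperoxides in membranes and is the main brake on ferroptosis, was at 346, 382 and 369 in sgNS and at 567, 346 and 398 in sgMETTL1.3. For GPX4 the log2 fold change was 0.23 (limma adjusted p = 0.281), and 0.59 as TPM (limma adjusted p = 0.00404), where it was 0.46 without replicate 1. After GC correction on the spike-in scale the value for GPX4 was -0.04, without passing.

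The glutathione transferases differed among themselves: MGST2 and GSTO1 fell on the spike-in scale, and GSTP1, MGST1 and MGST3 did not pass. MGST2 (chromosome 4, 139665768 to 139740745), a membrane enzyme that can make leukotriene C4, was at 150, 162 and 163 in sgNS and at 93.4, 80.2 and 94.6 in sgMETTL1.3. The groups lay far apart, and the log2 fold change was -0.82 (SE 0.102, limma adjusted p = 2.33e-05) and -0.46 as TPM (limma adjusted p = 0.000835). It overlaps MAML3 on the opposite strand by up to 252 exonic bases, and MAML3 itself was at 15.8 to 16.2 in sgNS and 12.5 to 16.0 in sgMETTL1.3. MGST3, a related membrane enzyme, was at 128, 146 and 147 in sgNS and at 162, 125 and 149 in sgMETTL1.3, which overlap. Its log2 fold change was 0.05, turning to -0.03 without sgMETTL1.3 replicate 1 and to -0.02 without sgNS replicate 1, and it rose as TPM (0.41, limma adjusted p = 0.00104). GSTO1, an omega-class enzyme, fell from 424 ± 16.4 to 342 ± 17.9 (SD, n = 3; log2 fold change -0.31, limma adjusted p = 0.0122) but was 0.05 as TPM, without passing. The GSTO1 call was lost without sgNS replicate 2 (limma adjusted p = 0.0765) and without sgNS replicate 3 (limma adjusted p = 0.087). As TPM without sgMETTL1.3 replicate 1 GSTO1 was called higher (0.14, limma adjusted p = 0.000522). GSTP1, the pi-class enzyme and one of the most abundant of the 35 transcripts, was at 1005, 1044 and 1081 in sgNS and at 1258, 770 and 897 in sgMETTL1.3. For GSTP1 the log2 fold change was -0.13 (limma adjusted p = 0.533), -0.33 without replicate 1 (limma adjusted p = 0.00397), and 0.23 as TPM (limma adjusted p = 0.101). As TPM without replicate 1 GSTP1 was called higher (0.11, limma adjusted p = 0.0037). MGST1 was at 28.8 ± 1.16 and 23.8 ± 2.60 (SD, n = 3), and its log2 difference was -0.27 (limma adjusted p = 0.0586), -0.35 without replicate 1 (limma adjusted p = 0.00373), and 0.08 as TPM.

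Of the glutaredoxins, GLRX2 fell on both scales and GLRX passed on neither with all 6 libraries. GLRX2 (chromosome 1, 193090866 to 193106114, minus strand), the mainly mitochondrial glutaredoxin, was at 117, 129 and 123 in sgNS and at 52.4, 57.6 and 69.0 in sgMETTL1.3. Every sgMETTL1.3 value was below every control, and the log2 fold change was -1.04 (SE 0.114; limma adjusted p = 8.37e-06), or -0.68 as TPM (limma adjusted p = 0.00489). GLRX2 overlaps TROVE2 on the opposite strand by up to 354 exonic bases. GLRX, the cytosolic glutaredoxin, was at 97.4, 116 and 107 in sgNS and at 88.4, 86.0 and 98.3 in sgMETTL1.3. The GLRX groups overlapped, and its log2 fold changes were -0.23 (limma adjusted p = 0.081) and 0.13 as TPM (limma adjusted p = 0.253). As TPM without sgMETTL1.3 replicate 1 GLRX was called higher (0.22, limma adjusted p = 0.000605).

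In the thioredoxin system SRXN1 fell, and TXN and TXNRD1 did not pass. SRXN1 (chromosome 20, 646615 to 653370, minus strand), sulfiredoxin, reduces overoxidised peroxiredoxins and is a well-known NRF2 target. Its values were 34.3, 37.5 and 37.3 in sgNS and 16.6, 16.4 and 17.3 in sgMETTL1.3. The 3 sgMETTL1.3 libraries lay close together, including replicate 1, and SRXN1 changed by -1.07 on the log2 scale (SE 0.105; limma adjusted p = 3.46e-06), or by -0.72 as TPM (limma adjusted p = 0.000677). SRXN1 shares up to 2292 exonic bases with the locus AL121758.1 on the same strand, so its reads could be divided between them. TXN, thioredoxin, was at 258, 297 and 283 in sgNS and at 257, 208 and 247 in sgMETTL1.3. TXNRD1, the selenoprotein that reduces thioredoxin, was at 153, 163 and 160 and at 132, 127 and 147. Both genes lay just below their controls with log2 fold changes of -0.24 and -0.23 (limma adjusted p = 0.0769 and 0.0586). As TPM the values were 0.12 and 0.13, without passing. On the spike-in scale TXN fell without sgMETTL1.3 replicate 1 (-0.30, limma adjusted p = 0.0102), and TXNRD1 fell without replicate 3 (-0.29, limma adjusted p = 0.0188). As TPM without replicate 1 both were called higher (0.14 and 0.22, limma adjusted p = 0.00176 and 3.58e-05).

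Peroxiredoxins had 4 of 6 members lower, PRDX1, PRDX3, PRDX4 and PRDX6, beside 49.3% of all genes, and PRDX3, PRDX4 and PRDX6 fell also as TPM, beside 25.3%. Without sgMETTL1.3 replicate 1 all 6 fell on the spike-in scale, in a fit that called 61.4% of all genes lower. As TPM without it 3 fell and 2 rose, beside 34.3% and 36.3% of all genes. PRDX6 (chromosome 1, 173477266 to 173488807), the 1-Cys enzyme that also repairs phospholipids, was at 305, 330 and 326 in sgNS and at 167, 142 and 161 in sgMETTL1.3. Its log2 fold change was -1.03 (SE 0.0994, limma adjusted p = 3.18e-06), and -0.67 as TPM (limma adjusted p = 0.000127). PRDX3 (chromosome 10, 119167703 to 119178833, minus strand), the mitochondrial peroxiredoxin, was at 243, 274 and 263 in sgNS and at 132, 134 and 162 in sgMETTL1.3. PRDX3 changed by -0.87 on the log2 scale (SE 0.107, limma adjusted p = 2.08e-05), and -0.51 as TPM (limma adjusted p = 0.00669). Neither gene overlapped between the groups on either scale.

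PRDX4, the peroxiredoxin of the endoplasmic reticulum, fell from 403 ± 15.1 to 273 ± 21.3 (SD, n = 3; log2 fold change -0.56, limma adjusted p = 0.000306), with -0.20 as TPM (limma adjusted p = 0.0238). PRDX1, a cytosolic enzyme induced by NRF2, fell from 448 ± 18.1 to 322 ± 24.4 (SD, n = 3; log2 fold change -0.48, limma adjusted p = 0.00102) and did not pass as TPM (-0.11). PRDX2, also cytosolic, was at 129, 145 and 138 in sgNS and at 143, 99.9 and 122 in sgMETTL1.3, where replicate 1 lay among the controls. PRDX5, found in mitochondria, peroxisomes and cytosol, was at 251, 261 and 273 in sgNS and at 258, 189 and 220 in sgMETTL1.3, with replicate 1 again among the controls. Neither passed on the spike-in scale (-0.19 and -0.25), and as TPM they were at 0.17 and 0.11 without passing. Without replicate 1 both were called lower on the spike-in scale (-0.32 and -0.36, limma adjusted p = 0.00648 and 0.00171). As TPM without replicate 1 both were called higher (0.12 and 0.07, limma adjusted p = 0.00885 and 0.0488). Summed over the 6 genes the level was 1742 to 1875 in sgNS and 1113 to 1302 in sgMETTL1.3 on the spike-in scale. As TPM the sums were 1577 to 1604 and 1319 to 1429, again without overlap. Annotated pseudogenes carry the names of several of these genes (4 each for PRDX2 and PRDX3, 1 for PRDX1, and 7 for TXN), so the assignment of their reads is uncertain.

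SOD1 and CAT fell on the spike-in scale, while SOD2 did not pass there and rose as TPM. SOD1, the cytosolic copper-zinc superoxide dismutase, was at 399, 443 and 430 in sgNS and at 305, 284 and 331 in sgMETTL1.3 (log2 fold change -0.47, limma adjusted p = 0.00129; as TPM -0.11, not passing). CAT, catalase of the peroxisome, was at 376, 418 and 400.5 and at 285, 257 and 303 (log2 fold change -0.50, limma adjusted p = 0.000826; as TPM -0.14, not passing). As TPM without sgMETTL1.3 replicate 1 CAT was called lower (-0.08, limma adjusted p = 0.00906), and SOD1 did not pass (-0.03). SOD2, the mitochondrial manganese enzyme, was at 56.8, 63.5 and 60.4 and at 64.5, 55.9 and 62.7, which overlap. The SOD2 log2 fold change was 0.02 (limma adjusted p = 0.899), changing sign when sgNS replicate 1 or sgMETTL1.3 replicate 1 or 3 was left out, and 0.37 as TPM (limma adjusted p = 0.00203). Exons of SOD2 and of WTAP, on the opposite strand, share up to 205 bases, and WTAP itself was at 102 to 112 in sgNS and 83.7 to 94.8 in sgMETTL1.3.

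Of the remaining NRF2 targets, NQO1 rose, ABCC1 and PIR fell, OSGIN1 did not pass on the spike-in scale and AKR1B1 was hardly detected. NQO1 (chromosome 16, 69706996 to 69726951, minus strand), a quinone reductase commonly used as a readout of NRF2, was at 151, 164 and 163 in sgNS and at 271, 241 and 286 in sgMETTL1.3. The groups lay far apart, and NQO1 changed by 0.73 on the log2 scale (SE 0.100; limma adjusted p = 4.62e-05), or by 1.09 as TPM (limma adjusted p = 7.43e-05). No TGACNNNGC match was in the 250 bases before its start, and bases farther upstream were not searched. ABCC1 (chromosome 16, 15949577 to 16143074), an exporter of glutathione conjugates, was at 27.8, 28.4 and 27.1 in sgNS and at 18.3, 13.8 and 16.5 in sgMETTL1.3. All sgMETTL1.3 values of ABCC1 were below all controls (log2 fold change -0.75, limma adjusted p = 0.00017; as TPM -0.40, limma adjusted p = 0.00293). PIR, which encodes the iron-binding nuclear protein pirin, fell from 68.7 ± 4.25 to 53.7 ± 6.69 (SD, n = 3; log2 fold change -0.35, limma adjusted p = 0.0173) and was 0.00 as TPM. The PIR call was lost without sgNS replicate 2 (limma adjusted p = 0.0816) and without sgNS replicate 3 (limma adjusted p = 0.0606). OSGIN1, a low transcript, was at 5.07, 4.28 and 4.56 in sgNS and at 7.63, 5.07 and 5.45 in sgMETTL1.3. The OSGIN1 log2 fold change was 0.31 (limma adjusted p = 0.0986), was 0.15 without replicate 1, and was 0.61 as TPM (limma adjusted p = 0.00564). AKR1B1, an aldose reductase, was listed at 0, 0 and 0.0604 in sgNS and at 0.246, 0.266 and 0.161 in sgMETTL1.3, too low for a fold.

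**Figure D3:**
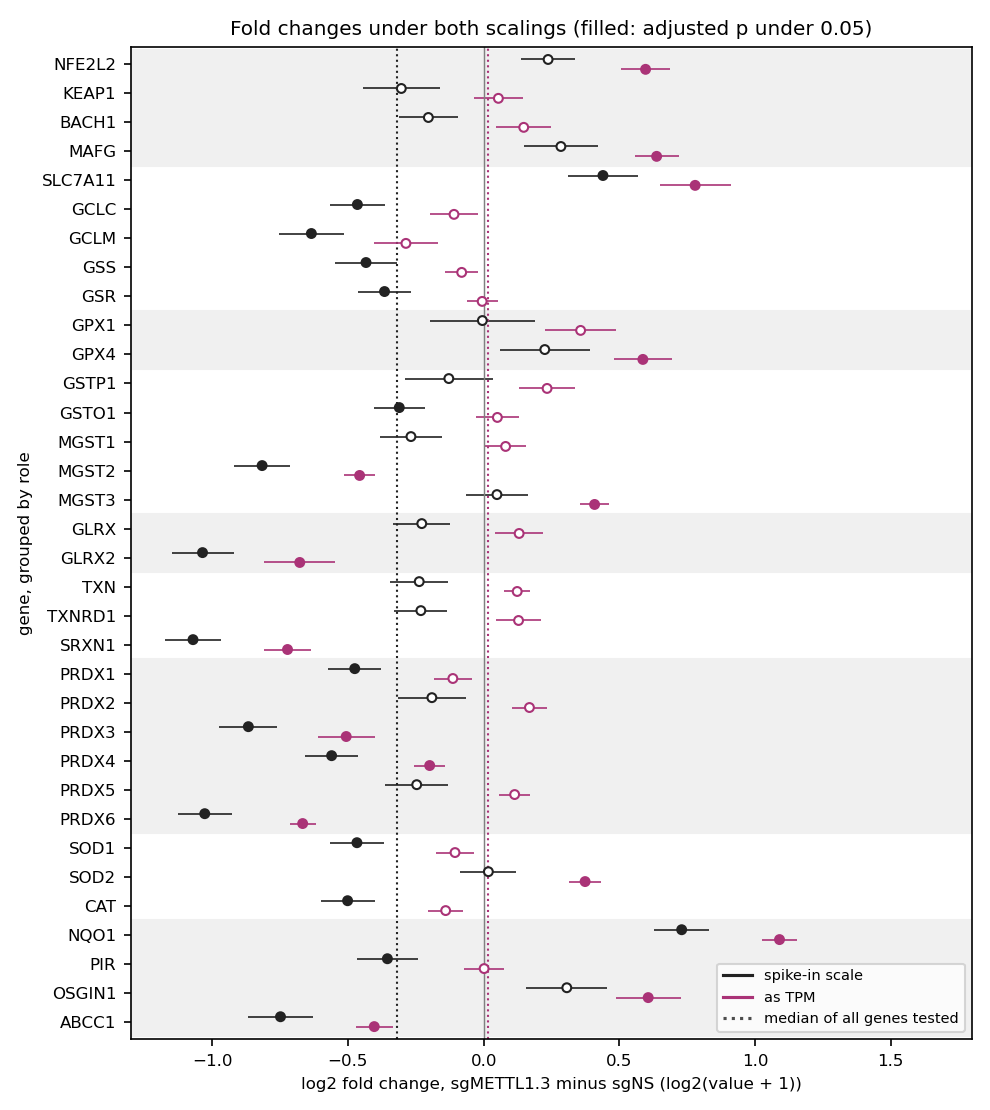
Log2 fold change (sgMETTL1.3 minus sgNS, on log2 of value + 1) of each of the 34 tested genes on the spike-in scale (black) and as TPM (purple); bars are limma standard errors, filled points have an adjusted p under 0.05 and dotted lines are the medians of all tested genes, -0.32 and 0.01. NQO1 (0.73 and 1.09) and SLC7A11 (0.44 and 0.78) are filled to the right of 0 on both scales, and SRXN1, GLRX2 and PRDX6 are farthest to the left.

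Ratios of genes within a library do not depend on the factor of that library, apart from the 1 added to each value. Of 8 such ratios, 7 did not overlap between the groups. The share of all gene pairs whose ratio did not overlap was not computed, so this count has no background beside it. For each of these 7 ratios the exact two-sided permutation p was 0.1, the smallest that 3 against 3 can give. After Benjamini-Hochberg adjustment over the 8 it was 0.114. The ratio of NFE2L2 to KEAP1 was 1.10 to 1.16 in sgNS and 1.26, 1.93 and 1.88 in sgMETTL1.3, so replicate 1 was the nearest to the controls. BACH1 to NFE2L2 was 0.320 to 0.362 in sgNS and 0.247 to 0.256 in sgMETTL1.3, a tight group that included replicate 1. SOD2 to SOD1, the mitochondrial over the cytosolic dismutase, was 0.143 to 0.145 in sgNS and 0.192 to 0.214 in sgMETTL1.3. GPX1 to GPX4 was 2.51 to 2.75 and 2.17 to 2.35, and these genes have nearly the same GC content. PRDX1 to PRDX2 was 3.10 to 3.33 and then 2.23, 2.97 and 2.84, with the lowest value in replicate 1. GCLM to GCLC was 0.454 to 0.512 and 0.408 to 0.444, and GSR to GCLC was 2.38 to 2.44 and 2.46 to 2.79. These were the smallest shifts among the 7, at -0.17 and 0.10 on the log2 scale. TXN to TXNRD1 overlapped, at 1.68 to 1.82 and 1.63 to 1.94 (exact permutation p = 1).

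A further 4 ratios were chosen after their values were seen and are given without a test. NQO1 to SRXN1, both NRF2 targets, was 4.29 to 4.32 in sgNS and 15.5, 13.9 and 15.6 in sgMETTL1.3. GLRX2 to GLRX fell in value from a mean of 1.15 ± 0.0448 to 0.659 ± 0.0556, MGST2 to MGST3 from 1.13 ± 0.0364 to 0.620 ± 0.0359, and PRDX6 to PRDX1 from 0.715 ± 0.0137 to 0.488 ± 0.0294 (SD, n = 3).

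**Figure D4:**
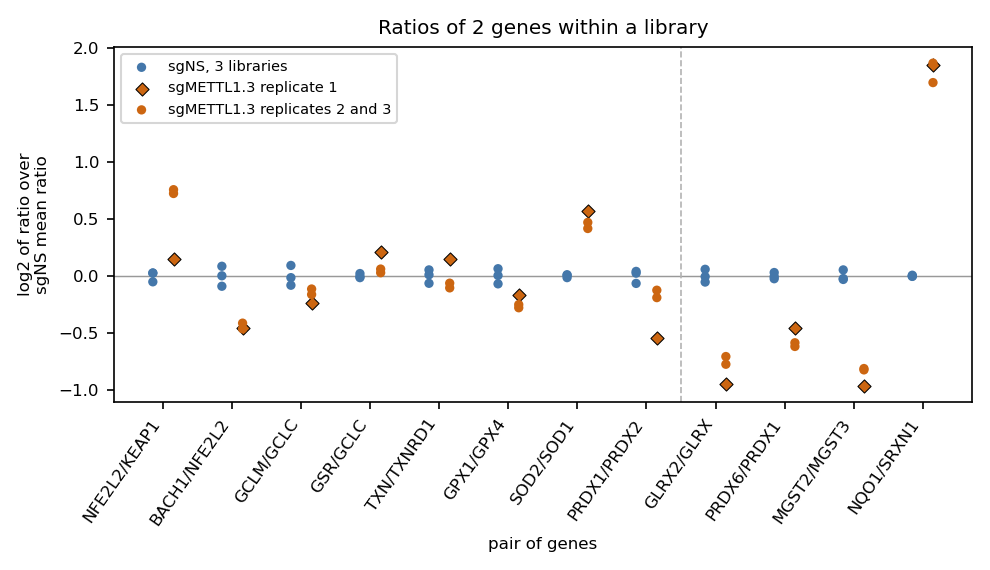
Log2 of the ratio of 2 genes within each library over the mean ratio of the sgNS libraries, for 8 pairs with a test (left of the dashed line) and 4 pairs chosen after their values were seen (right); blue points are sgNS, orange points sgMETTL1.3, and the outlined diamond is sgMETTL1.3 replicate 1. NQO1/SRXN1 stands highest, with ratios of 13.9 to 15.6 against 4.29 to 4.32 in sgNS, and TXN/TXNRD1 overlaps.

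Levels of different genes can be compared as TPM, which is per length. In sgNS the most abundant of the 35 transcripts were GSTP1 (908 ± 26.0 TPM) and GPX1 (838 ± 32.5 TPM; SD, n = 3), which lay close together at 878 to 925 and 808 to 872. PRDX1, GSTO1, SOD1, PRDX4, CAT and GPX4 followed between 390 and 318 TPM, and of these GSTO1 overlapped SOD1 and PRDX4 overlapped CAT. In sgMETTL1.3 GPX1 and GSTP1 were still the highest and overlapped (1088 ± 228 and 1076 ± 172 TPM; SD, n = 3). In sgNS NQO1, TXNRD1, MGST2 and GSR overlapped, and in sgMETTL1.3 NQO1 overlapped PRDX4 and CAT. NQO1 went from 139 ± 0.848 to 297 ± 20.5 TPM (SD, n = 3). PRDX6 went from 278 ± 1.12 to 175 ± 5.35 TPM (SD, n = 3). At the low end OSGIN1, SLC7A11, ABCC1, MGST1 and GCLM were under 30 TPM in both groups.

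Other genes of the pathway were read from a list of 104, of which 79 were tested. On the spike-in scale 11 rose and 42 fell, and 25 rose and 27 fell as TPM, beside the shares of all genes given above. The 4 with the smallest p among the lower genes were GSTCD, which encodes a protein with a glutathione transferase domain, GLRX3, an iron-sulfur glutaredoxin, RBX1, the RING subunit of the ligase that degrades NRF2, and TXNDC9, a thioredoxin-like protein. GSTCD changed by -1.42 on the log2 scale (-1.08 as TPM), GLRX3 with -1.21 (-0.85), RBX1 with -1.09 (-0.73) and TXNDC9 with -0.98 (-0.62). RBX1 values were 128, 136 and 128 in sgNS and 63.6, 55.6 and 64.2 in sgMETTL1.3. The 4 among the higher genes were HMOX1, heme oxygenase, SESN2, a stress-induced sestrin, FTH1, ferritin heavy chain, and SQSTM1, the autophagy receptor p62 that binds KEAP1. HMOX1 values were 35.5, 36.2 and 35.9 in sgNS and 143, 94.0 and 116 in sgMETTL1.3 (log2 fold change 1.67, limma adjusted p = 2.41e-06; 2.02 as TPM). SQSTM1 values were 329, 354 and 352 in sgNS and 678, 485 and 556 in sgMETTL1.3 (log2 fold change 0.72, limma adjusted p = 0.000225; 1.08 as TPM). FTH1 rose with 0.62 (0.98 as TPM) and SESN2 with 1.08 (1.42 as TPM), and on the spike-in scale replicate 1 was the highest library for each of HMOX1, SESN2, FTH1 and SQSTM1. As TPM FTH1 was nearly level in the 3 sgMETTL1.3 libraries (3831, 3819 and 3850).

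The counts by subgroup stand beside 6.4% of all genes higher and 49.3% lower on the spike-in scale, and 24.8% and 25.3% as TPM, and several are near those shares. The heme and iron targets had 4 of 7 tested genes higher and 1 lower on both scales, with a median log2 fold change of 0.54 (0.90 as TPM). Among 18 other glutathione genes 13 fell and none rose, while as TPM 7 fell and 1 rose. Of 21 other thioredoxin and thiol genes 14 fell and 2 rose, and as TPM 9 fell and 5 rose. The enzymes of NADPH supply, which feed both thiol systems, had 9 tested members, of which 4 fell. As TPM 1 of them fell and 5 rose. Of 13 partners in NRF2 regulation 6 fell and SQSTM1 rose, and as TPM 5 moved each way. Detoxification genes outside these lists numbered 11, with 4 lower and 3 higher on the spike-in scale, or 4 and 5 as TPM.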

How the data were processed

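Poly(A)-selected RNA from 300 ng of total RNA per library was sequenced with ERCC spike-ins, per the labels' protocols. The submitters' processing notes name cutadapt, STAR and RSEM and the builds GRCh38 and hg38, without versions; the annotation and the use of strand are not stated there. The deposited signal values are TPM, in steps of 0.01, times 1 factor per library that equalises the sum of the 92 spike-in rows, as read from the values. Here log2(value + 1) of the 12449 genes at 1 or above in at least 3 of 6 libraries was fitted with limma 3.58.1 in R 4.3.3 (trend, robust, no block), and p-values were adjusted by Benjamini-Hochberg over all of them (threshold 0.05); folds of low genes are understated on this scale. TPM was recovered by rescaling each library without spike-ins. Members, lists and ratios were chosen with earlier results of these data known. Named genes were METTL1, all 35 members and the 4 smallest p in each direction among called pathway genes; others were named after their values were seen. Of 104 pathway genes 4 were not analysed here. Simulated data with known changes were used to test the fit. GC content and gene positions came from GENCODE 29 (GRCh38), promoters from RefSeq (GRCh38.p14). Values of some listed genes are not reported here.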

Additional observations from a re-analysis of the deposited data

How the results depend on the processing

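Of the 34 tested genes, 8 (ABCC1, GLRX2, MGST2, NQO1, PRDX3, PRDX4, PRDX6 and SRXN1) kept direction and call under all 17 alternatives. The share of all genes that did so was not computed, so this count has no background beside it. Counts of calls moved with the scaling and with sgMETTL1.3 replicate 1: 8 genes were higher and 7 lower as TPM, 8 and 9 by median of ratios, 17 and 9 as TPM leaving out sgMETTL1.3 replicate 1, and 13 and 10 as TPM with GC correction, the last chosen after seeing the data. Pathway genes higher numbered 25, 24, 34 and 28 in that order, and those lower 27, 28, 31 and 32, of 79; of all genes 24.8%, 23%, 36.3% and 29.8% were higher and 25.3%, 28.9%, 34.3% and 33.8% lower. Over the 34 genes the median fold change on the log2 scale was 0.068, 0.033, 0.0698 and 0.0067 in that order. Leaving out 1 library at a time gave 1 to 6 higher and 14 to 23 lower genes, 8 to 12 higher and 34 to 50 lower pathway genes, a median of -0.36 to -0.20, and -1.50 to -1.29 for METTL1. Over the same fits 4.34% to 8.41% of all genes were higher and 39.7% to 61.4% lower. In those fits the spread is pooled over all libraries kept, and without sgMETTL1.3 replicate 1 over genes as well. Read depth is unknown, so no counting error can be given.

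Log2 fold changes that changed sign from the main fit (spike-in scale, all 6 libraries) were as follows. None of these genes was called in the main fit except GSTO1, GSR and PIR. As TPM they were KEAP1 0.054, BACH1 0.15, GPX1 0.36, GSTP1 0.23, GSTO1 0.051, MGST1 0.081, GLRX 0.13, TXN 0.12, TXNRD1 0.13, PRDX2 0.17, PRDX5 0.11 and PIR 0.0018. By median of ratios they were KEAP1 0.019, BACH1 0.11, GPX1 0.32, GSTP1 0.20, GSTO1 0.015, MGST1 0.047, GLRX 0.10, TXN 0.088, TXNRD1 0.093, PRDX2 0.13 and PRDX5 0.079. As TPM without sgMETTL1.3 replicate 1 they were BACH1 0.25, GSR 0.032, GPX1 0.19, GSTP1 0.11, GSTO1 0.14, MGST1 0.068, GLRX 0.22, TXN 0.14, TXNRD1 0.22, PRDX2 0.12, PRDX5 0.072 and PIR 0.051. All of these but GSR, MGST1 and PIR were called higher in that fit, GSTO1 against its lower call in the main fit. On the spike-in scale without the same library GPX1, GSTP1, GSTO1, TXN, PRDX2 and PRDX5 were called lower. As TPM with GC correction the values of changed sign were BACH1 0.27, GSR 0.0061, GPX1 0.12, GSTP1 0.0072, GSTO1 0.082, MGST1 0.26, GLRX 0.19, TXN 0.20, TXNRD1 0.18 and PRDX2 0.015. There BACH1, GPX1, GLRX, TXN and TXNRD1 were called higher. GPX4 was -0.04 with GC correction. Over single left-out libraries GPX1 ran from -0.24 to 0.17, GSTP1 from -0.33 to 0.027, MGST3 from -0.033 to 0.15, SOD2 from -0.023 to 0.079, and the log2 difference of TXN to TXNRD1 from -0.083 to 0.043. The cause was not tested.

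Same-numbered libraries did not deviate together (correlations -0.0137, 0.00455 and -0.0385), and not every library correlated best with its own number. With a replicate block 2 of the 34 genes were higher and 16 lower, and 11 pathway genes were higher and 43 lower. Of all genes 6.54% were higher and 47.1% lower with the block, which changed no member's call.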
